A study of Arabidopsis thaliana with 19 samples.

Results

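Transcripts of 8 Arabidopsis thaliana genes of immunity and jasmonate-linked defence were followed through an autopolyploid series, in which every genome copy comes from 1 species. The genes were chosen by name, with earlier results of these data known. Each has 1 probe set among the 22746 tested, and the genes make up 8 of the 13286 with a probe set of their own. They are the jacalin-related lectin JAL33, the plant defensins PDF1.2, PDF1.2b and PDF1.4, the receptor EFR, the kinase BIK1, the EDS1 partner SAG101 and the glutaredoxin GRX480. Chromosome 1 holds PDF1.4 (AT1G19610) and GRX480 (AT1G28480), chromosome 2 PDF1.2b (AT2G26020) and BIK1 (AT2G39660), chromosome 3 JAL33 (AT3G16450), and chromosome 5 PDF1.2 (AT5G44420), EFR (AT5G20480) and SAG101 (AT5G14930). The samples were 19 single seedlings, 2 weeks old and grown on Murashige and Skoog medium. Of these, 5 were triploids with paternal excess, written 3x(p), 5 were triploids with maternal excess, written 3x(m), 5 were tetraploids (4x) and 4 were diploids (2x). Genome copies numbered 3 in both triploids, 4 in tetraploids and 2 in diploids. All groups share the same medium and age, no seedling was described as infected, wounded or hormone-treated, and the parental strains and crosses are not given in the sources used here. Each seedling gave 1 Affymetrix array, deposited as log2 RMA values. These values are relative to the rest of each transcriptome, and their number per group limits the precision.

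Plants perceive microbes at the cell surface through receptor kinases such as EFR, which binds a peptide of bacterial elongation factor Tu, and pass the signal to cytoplasmic kinases such as BIK1. Inside the cell, nucleotide-binding receptors act through EDS1 and its partners PAD4 and SAG101. Jasmonate and ethylene together induce PDF1.2, a classic readout of defence against necrotrophic fungi, while salicylate-linked TGA factors and the glutaredoxin GRX480 can dampen PDF1.2 expression. JAL33 belongs to the jacalin-related lectins, several of which associate with the beta-glucosidase PYK10 of root endoplasmic reticulum bodies.

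The arrays had medians between 5.80 and 5.89, and no pair was closer than a root mean square difference of 0.231. Seedling 3x(m) 4 stood apart, with 1320 probe sets (5.8%) lying over 1 log2 unit from their median over all seedlings, against 0.229% to 1.82% in the other 18. In it, 66.5% of the named probe sets of chromosome 4 lay above their median over all seedlings, against 42.4% to 45.8% on the other chromosomes, and none of the 8 genes (0) lies on chromosome 4. The leaf marker RCA, the activase of Rubisco, lay between 13.72 and 13.98 in all seedlings, and root markers were also present, so both organs contributed RNA. In such whole-seedling RNA, fewer cells of a type and less RNA per cell cannot be told apart.

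JAL33 was the 1 gene of the 8 whose level passed the test in any comparison. It had 11.58, 11.76, 11.27, 11.71 and 11.46 in the 4x seedlings, against 9.80, 11.26, 10.77 and 10.86 in the 2x seedlings. Every tetraploid lay above every diploid, although the closest, 4x 3 and 2x 2, were at 11.27 and 11.26. Of all probe sets, 3.31% were likewise higher in 4x without overlap, and 7.24% were apart in either direction. JAL33 rose in tetraploids, averaging 11.56 ± 0.20 (SD, n = 5), against 10.67 ± 0.62 in diploids (SD, n = 4). The difference was 0.88 ± 0.21 (SE) on the log2 scale, a fold of 1.85 (limma over all 19 seedlings, adjusted p = 0.0497). This adjusted p is just inside the threshold of 0.05, and 0.958% of all probe sets passed in this comparison. The call held in 4 of the 19 fits that left out 1 seedling, those without 2x 2, 3x(m) 1, 3x(m) 4 or 4x 3, and ended in the other 15. The number of all probe sets that passed also moved, from 218 in the main fit to 77 without 2x 1 and 382 without 3x(m) 4. Without 2x 1, the lowest seedling, the difference was 0.59 (adjusted p = 0.124).

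The triploids lay between tetraploids and diploids in JAL33. The 3x(p) seedlings had 11.45, 11.28, 11.45, 11.12 and 11.27, and averaged 11.31 ± 0.14 (SD, n = 5). The 3x(m) seedlings had 10.86, 11.26, 11.22, 11.62 and 11.25, and averaged 11.24 ± 0.27 (SD, n = 5). Both triploid groups overlapped the diploids, in which 2x 2 reached the triploid level. The difference from diploids was 0.64 ± 0.21 in 3x(p) (limma, adjusted p = 0.183) and 0.57 ± 0.21 in 3x(m) (adjusted p = 0.999), and neither passed. Without 2x 1 these differences were 0.35 and 0.28. These comparisons use the same 4 diploid arrays as that of the tetraploids. The order of the group means was 4x, 3x(p), 3x(m) and 2x, and no neighbours in that order differed by a passing test. The triploids differed from each other by 0.07 ± 0.20, 3x(p) minus 3x(m). They differed from tetraploids by −0.24 ± 0.20 in 3x(p) and by −0.31 ± 0.20 in 3x(m). As a slope, JAL33 gained 0.43 ± 0.10 per genome copy (limma, adjusted p = 0.0668), where 0.484% of all probe sets passed. The slope passed without 2x 2 (adjusted p = 0.0423) or without 3x(m) 4 (adjusted p = 0.0367). In these fits 68 and 226 of the 22746 probe sets passed, against 110 in the main fit.

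**Figure D1:**
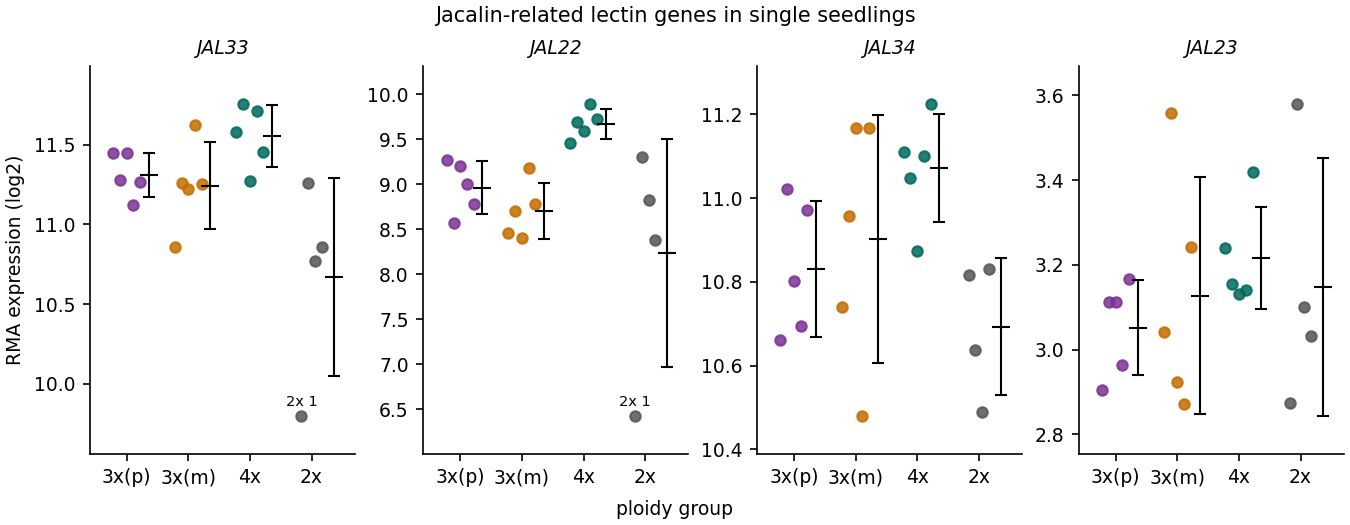
RMA expression (log2, y axis, own range per panel) of 4 jacalin-related lectin genes in single seedlings of the 4 ploidy groups (x axis). Points are seedlings, and horizontal bars with whiskers are the mean ± SD. In JAL33 all 4x seedlings lie at 11.27 or higher, 2x 1 lies at 9.80, and JAL22 has the same low diploid.

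Other jacalin-related lectins, of which 4 of the 8 listed were measured, showed a like arrangement without passing, except JAL23. On chromosome 3, JAL33 has JAL31 and JAL34 close by, and JAL34 is the next protein-coding gene in the TAIR10.1 annotation. JAL34 had 11.11, 11.05, 10.87, 11.10 and 11.23 in 4x, against 10.82, 10.64, 10.49 and 10.83 in 2x. The groups did not overlap, and the difference was 0.38 ± 0.13 (limma, adjusted p = 0.197). JAL22, on chromosome 2, had 9.46, 9.69, 9.60, 9.90 and 9.72 in 4x, against 6.42, 9.31, 8.82 and 8.39 in 2x. Its difference was 1.44 ± 0.37 (adjusted p = 0.0777), and 0.83 without 2x 1 (adjusted p = 0.0996). The 4x seedlings also lay above all triploids in JAL22, whose highest value was 9.27 in 3x(p) and 9.18 in 3x(m). Of all probe sets, 0.901% and 1.59% were apart from 4x in these groups, in either direction. Neither difference of JAL22 from 4x passed (limma). JAL23 stayed near the low end of the array and differed by 0.07 ± 0.14. AT1G52000, which the gene table used here does not name, completed the list of measured genes and differed by 1.01 ± 0.43 (adjusted p = 0.31), and by 0.60 without 2x 1. Apart from JAL33 none of the 4 passed in any comparison with diploids (0), and at an unadjusted p under 0.05 the genes numbered 3 in 4x and 0 in both triploids (limma), where 12.9% of all probe sets were under it in 4x, 12.2% in 3x(p) and 4.33% in 3x(m). Of these 5 genes with JAL33 included, 4 were higher in 4x than in 2x without overlap, where 3.31% of all probe sets were. These genes were read in the same seedlings, and the list was chosen with earlier results of these data known. The count is therefore not a test of the family.

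JAL22 was also the named gene whose pattern was most like that of JAL33, with a Pearson r of 0.90 over the 19 seedlings, followed by AT1G64710 (0.88) and AT3G18930 (0.84). These r values describe seedlings that share groups and arrays. They were 0.74, 0.68 and 0.65 without 2x 1, the seedling farthest from the JAL33 median.

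Root markers were examined in the same comparison. All 4 measured of 6 listed root markers had positive differences in 4x minus 2x, and 1 passed: XTH26, an enzyme of xyloglucan remodelling in the wall, rose by 2.62 ± 0.52 (limma, adjusted p = 0.0172). Without 2x 1 its difference was 2.42 and did not pass (adjusted p = 0.0872). The expansins EXPA18 and EXPA7 differed by 1.11 ± 0.39 and 0.85 ± 0.47, and PYK10 by 0.22 ± 0.09. The mean log2 value of the 4 markers ranged from 8.37 to 9.37 in 4x, against 7.36 to 7.94 in 2x. In the triploids it ranged from 7.86 to 8.70 in 3x(p) and from 6.76 to 8.82 in 3x(m). Seedling 3x(m) 4 held the lowest root marker value of all and the highest JAL33 of its group. The part of root content in the JAL33 result was not tested.

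The defensins showed isolated high seedlings rather than shifted groups. PDF1.2 encodes the small antifungal peptide used as a jasmonate and ethylene readout. It had 4.29, 4.42, 4.10, 4.31 and 6.71 in 4x, against 4.43, 4.40, 4.18 and 4.51 in 2x. The first 4 tetraploids lay within or just below the diploid range and 4x 5 stood far above the next seedling of the whole series, 2x 4 at 4.51. The triploids gave 4.29, 4.25, 4.16, 4.43 and 4.35 in 3x(p), and 4.19, 4.29, 4.15, 4.48 and 4.28 in 3x(m). Apart from 4x 5, all 18 seedlings lay between 4.10 and 4.51. The difference from diploids was 0.39 ± 0.35 in 4x (limma, adjusted p = 0.719) and −0.10 without 4x 5. The 4x group averaged 4.77 ± 1.09 (SD, n = 5), against 4.38 ± 0.14 in 2x (SD, n = 4). The difference was −0.08 ± 0.35 in 3x(p) and −0.10 ± 0.35 in 3x(m). The 95% intervals of these 3 differences reached from −0.84 to 1.12.

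PDF1.2b, a close relative of PDF1.2 on another chromosome, was highest in the same tetraploid. It had 4.97, 5.00, 4.65, 5.51 and 7.46 in 4x, against 4.56, 5.02, 5.10 and 5.25 in 2x. The maternal-excess triploids had 4.89, 5.36, 4.98, 6.74 and 4.55, with 3x(m) 4 as their high seedling. The paternal-excess triploids had 5.00, 4.53, 5.00, 4.83 and 5.60. Without 4x 5 and 3x(m) 4, all groups covered a similar range. The difference from diploids was 0.01 ± 0.47 in 3x(p), 0.32 ± 0.47 in 3x(m) and 0.54 ± 0.47 in 4x, with adjusted p of 0.996, 0.999 and 0.705 (limma). It was 0.05 in 4x without 4x 5 and −0.04 in 3x(m) without 3x(m) 4. The PDF1.2b probe set carries the suffix x, which in Affymetrix naming marks probes that may also bind similar transcripts, so signal from PDF1.2 and its near copies cannot be separated from PDF1.2b.

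PDF1.4, a more distant defensin, had no seedling as far from the others as PDF1.2 and PDF1.2b had, and its residual SD within groups was 0.21, against a median of 0.18 over all probe sets. Its values ran from 3.33 through a median of 3.62 to 3.90 in 3x(p), and from 3.39 through 3.56 to 4.14 in 3x(m). They ran from 3.46 through 3.66 to 3.88 in 4x, and from 3.56 through 3.63 to 3.69 in 2x. All groups overlapped. The intervals of its differences from diploids lay between −0.31 and 0.34. PDF1.4 and EFR are both dim, with means under 4.07, the level that bounds the lowest 30% of all probe sets. Its highest value came from 3x(m) 4, which was also the second highest in PDF1.2b and the third highest in PDF1.2.

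**Figure D2:**
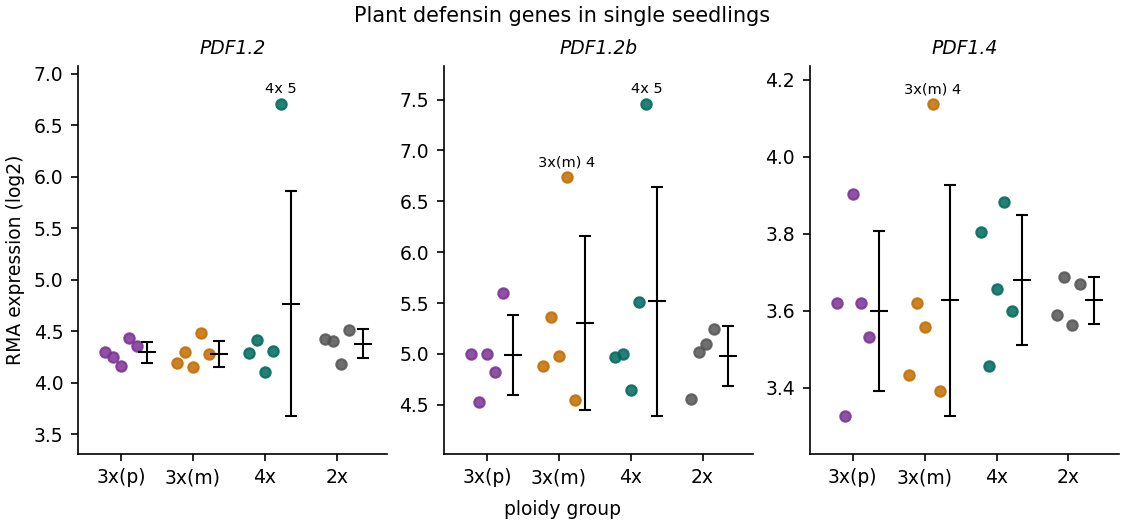
RMA expression (log2, y axis, own range per panel) of 3 plant defensin genes in single seedlings of the 4 ploidy groups (x axis). Points are seedlings, and horizontal bars with whiskers are the mean ± SD. Seedling 4x 5 lies at 6.71 in PDF1.2 and 7.46 in PDF1.2b, and 3x(m) 4 at 6.74 in PDF1.2b.

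The named genes most like PDF1.2 over the seedlings were PDF1.2b (r = 0.78), AT2G46050 (0.73) and AT5G11640 (0.73), and without 4x 5 these r values were 0.40, 0.28 and 0.061. For PDF1.2b they were AT5G35480 (0.80), AT2G42110 (0.80) and AT3G42725 (0.79), and 0.71, 0.79 and 0.69 without 4x 5. For PDF1.4 they were AT4G39900 (0.86), AT1G60000 (0.85) and AT1G70280 (0.85), all highest in 3x(m) 4. Without both 4x 5 and 3x(m) 4, the r values for PDF1.2b were 0.44, 0.50 and 0.34.

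The other defensins measured gave no call. Of the 10 listed, 7 had a probe set, and 0 passed in any comparison with diploids (limma), as did 0 at an unadjusted p under 0.05. Their median difference was −0.04 in 3x(p), 0.13 in 3x(m) and 0.01 in 4x. PDF2.1 differed by 0.41 ± 0.20 in 3x(p) (limma, adjusted p = 0.438). PDF2.2 and PDF2.3 were bright in every group, averaging 11.76 ± 0.24 and 10.89 ± 0.28 in 4x (SD, n = 5), against 11.70 ± 0.28 and 10.88 ± 0.20 in 2x (SD, n = 4).

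The measured genes of the surface receptor arm did not differ between groups by a passing test. EFR had 3.42, 3.61, 3.66, 3.81 and 3.81 in 3x(p) and 3.97, 3.76, 3.62, 3.55 and 3.77 in 3x(m). It had 3.74, 3.59, 3.61, 3.75 and 3.44 in 4x, against 3.66 to 3.71 in 3 of the 2x seedlings and 3.41 in 2x 3. All groups overlapped, and EFR had the smallest spread within groups of the 8 genes, a residual SD of 0.15. Its differences from diploids were 0.04 ± 0.10 in 3x(p), 0.11 ± 0.10 in 3x(m) and 0.0029 ± 0.10 in 4x. Their 95% intervals lay between −0.21 and 0.32.

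The named genes most like EFR were ATIM (r = 0.71), AT1G05790 (0.70) and AT1G17360 (0.69), lower r values than the nearest genes of the other 7.

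BIK1 gave a brighter signal and equally small differences. It had 6.87, 6.87, 6.87, 6.62 and 6.94 in 3x(p), and 6.98, 6.88, 6.69, 7.19 and 6.62 in 3x(m). It had 7.07, 6.75, 6.49, 6.81 and 6.72 in 4x, against 7.15, 6.71, 6.61 and 6.89 in 2x. High and low seedlings occurred in each of the groups 3x(m), 4x and 2x. The differences from diploids were −0.0039 ± 0.13 in 3x(p), 0.04 ± 0.13 in 3x(m) and −0.07 ± 0.13 in 4x, with intervals between −0.35 and 0.31. In fold terms the 3 estimates lay between 0.952 and 1.02. The 3 named genes most like BIK1 over the seedlings, AT4G18950, AT4G29440 and AT4G18930, all lie on chromosome 4, with r of 0.85, 0.82 and 0.81. Without 3x(m) 4, the seedling highest in BIK1, these r values were 0.80, 0.78 and 0.77. That seedling is also the one with raised values on chromosome 4, whose part in the likeness was not tested.

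Of other genes of this arm, 1 of 11 listed receptors, 1 of 16 signalling genes and 1 of 6 target genes were measured. SD1-29, an S-domain receptor kinase, differed from diploids by 0.06 to 0.25, and PBL27, a relative of BIK1, by −0.05 to 0.03. WRKY22, a transcription factor downstream of flagellin perception, had 5.29, 5.21, 5.10, 5.03 and 5.18 in 3x(p), against 4.54, 4.63, 4.20 and 4.57 in 2x. The groups did not overlap, as was so for 4.85% of all probe sets in either direction and 2.38% with the triploid higher, and the difference of 0.68 ± 0.19 did not pass (limma, adjusted p = 0.0978). WRKY22 differed by 0.48 ± 0.19 in 3x(m) and by 0.50 ± 0.19 in 4x.

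SAG101, which with EDS1 serves intracellular immune receptors and was named for its induction in senescing leaves, varied more within groups than between them. It had 4.13, 4.01, 4.19, 3.81 and 4.72 in 3x(p), and 4.57, 4.43, 3.94, 4.88 and 3.80 in 3x(m). It had 4.66, 3.98, 4.15, 4.09 and 3.97 in 4x, against 4.05, 4.25, 4.04 and 3.92 in 2x. Seedlings 3x(p) 5, 3x(m) 4 and 4x 1 were the high ones of their groups and no diploid exceeded 4.25, but every group also held seedlings at about 4.0 or below. The differences from diploids were 0.11 ± 0.21 in 3x(p), 0.26 ± 0.21 in 3x(m) and 0.11 ± 0.21 in 4x, with intervals between −0.32 and 0.69, and none passed. Without 3x(m) 4 that of 3x(m) was 0.12.

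The genes with patterns most like SAG101 were AT5G59670, AT5G52760 and AT4G23610, with r of 0.91, 0.91 and 0.89 over the 19 seedlings. All 3 were highest in 3x(m) 4, as SAG101 was. AT5G52760 reached 6.96 there, against a median of 3.73 over all seedlings. Without that seedling the r values were 0.88, 0.87 and 0.86.

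GRX480, a glutaredoxin of the CC type also called ROXY19, had its highest values in paternal-excess triploids. It had 4.90, 5.63, 5.23, 4.94 and 6.82 in 3x(p), against 4.73, 4.58, 4.85 and 4.92 in 2x. It had 4.79, 4.94, 4.65, 4.97 and 5.20 in 3x(m), and 5.58, 5.18, 4.59, 4.69 and 4.99 in 4x. Seedling 3x(p) 5 was the highest of the series by 1.19 log2 units, and 3x(p) 1 fell just inside the diploid range. The 3x(p) group averaged 5.50 ± 0.79 (SD, n = 5), against 4.77 ± 0.15 in 2x (SD, n = 4). The difference of 0.73 ± 0.29, a fold of 1.66, did not pass (limma, adjusted p = 0.296), although its unadjusted 95% interval was 0.12 to 1.35. In this comparison 1.15% of all probe sets passed. Over all seedlings, 3x(p) differed from the other triploids by 0.59 ± 0.27 (adjusted p = 0.809) and from tetraploids by 0.50 ± 0.27 (adjusted p = 1.00). Without 3x(p) 5, the difference was 0.41 from diploids, 0.26 from 3x(m) and 0.17 from tetraploids. The differences from diploids were 0.14 ± 0.29 in 3x(m) and 0.24 ± 0.29 in 4x.

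The rapid stress response genes WRKY53 and STZ were high in the same seedling. WRKY53, a stress and senescence transcription factor, was at 7.86 in 3x(p) 5, its highest value of all, and at 7.26 in 3x(m) 4. The zinc finger factor STZ was highest in 3x(p) 5 at 7.58. Of the 3 measured among 8 listed handling-response genes, STZ rose in 3x(p), by 1.94 ± 0.35 (limma, adjusted p = 0.00757), where 1.15% of all probe sets passed. WRKY53 differed by 1.71 ± 0.58 and did not pass. CML37 was dim, averaging 2.93 in 3x(p), and differed by −0.07. The mean log2 value of the 3 genes ranged from 4.58 to 6.13 in 3x(p), 4.10 to 5.72 in 3x(m) and 4.33 to 4.99 in 4x, against 3.79 to 4.03 in 2x. Their part in the GRX480 values was not tested. The named genes most like GRX480 were AT5G25930, AT3G10930 and AT1G72940, with r of 0.89, 0.86 and 0.82, and all 3 were highest in 3x(p) 5. Without it the r values were 0.73, 0.78 and 0.61. ROXY1 and ROXY2, 2 related glutaredoxins with roles in flower development, differed from diploids by −0.14 to 0.13.

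**Figure D3:**
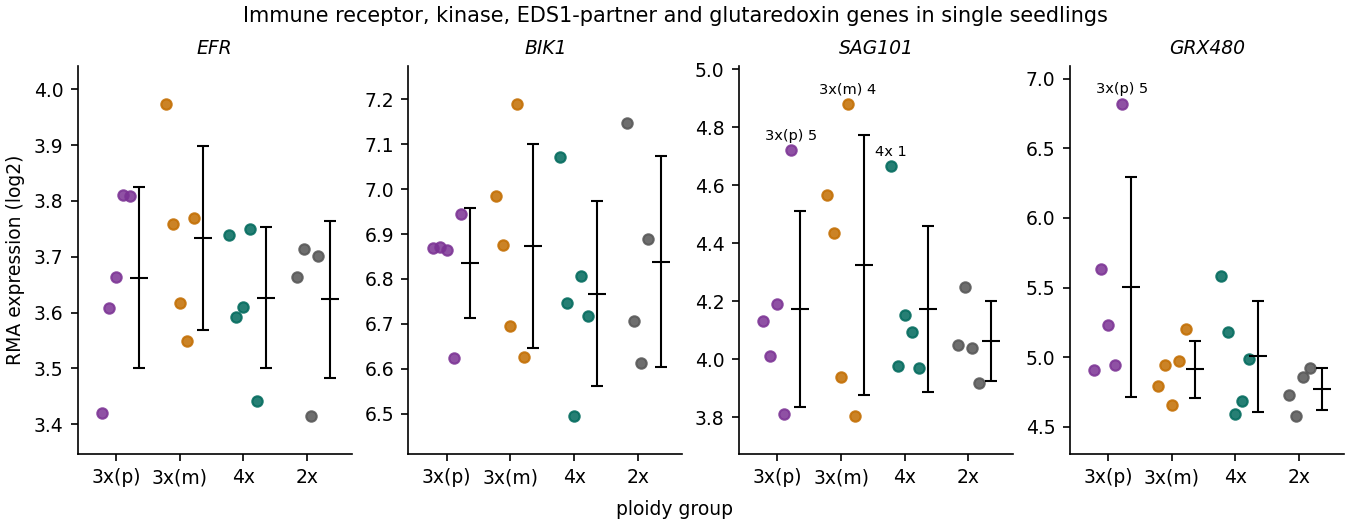
RMA expression (log2, y axis, own range per panel) of EFR, BIK1, SAG101 and GRX480 in single seedlings of the 4 ploidy groups (x axis). Points are seedlings, and horizontal bars with whiskers are the mean ± SD. The groups overlap in all 4 genes, and 3x(p) 5 lies at 6.82 in GRX480.

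The 5 measured genes of jasmonate synthesis, jasmonate perception and the jasmonate and ethylene response gave no call (limma). They were 1 of 14 listed for synthesis, 2 of 16 for perception and 2 of 9 for the response, so most were not read. At an unadjusted p under 0.05 only MYC4 and THI2.1 differed from diploids, both in 3x(p), where 12.2% of all probe sets were under it. OPCL1, a ligase of jasmonate synthesis, differed from diploids by −0.04 to 0.20. Of the MYC factors that drive jasmonate responses, MYC3 differed by −0.02 to 0.09 and MYC4 by −0.35 to 0.01. MYC4 was lower in all 3x(p) seedlings than in any diploid, at 4.45 to 4.91 in 3x(p), against 4.95 to 5.16 in 2x, but did not pass (limma, adjusted p = 0.313). Of all probe sets, 4.85% were apart in this comparison in either direction. EIN3, which links ethylene to PDF1.2, differed by −0.00054 to 0.11, and the thionin THI2.1 by −0.06 to 0.23. THI2.1 was dim, averaging 3.42 in 3x(p) and 3.19 in 2x. No gene of 4 further lists was measured by a named single-gene probe set: the MYC branch of jasmonate targets, the EDS1 module, the salicylate pathway and senescence.

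Over all 8 genes, 1 passed in 4x minus 2x and 0 in each of the other 5 group comparisons, in the slope and in the test of any difference among the 4 groups (limma). Of all probe sets 1.15% passed in 3x(p) minus 2x, 0.0352% in 3x(m) minus 2x, 0.0044% in 3x(p) minus 3x(m), 0.022% in 3x(p) minus 4x, 0.0747% in 3x(m) minus 4x and 0.769% in the test of any difference. At an unadjusted p under 0.05, the genes numbered 2 in 3x(p) minus 2x, 1 in 3x(m) minus 2x and 1 in 4x minus 2x, where 12.2%, 4.33% and 12.9% of all probe sets were under it. They numbered 1 in 3x(p) minus 3x(m), 0 in 3x(p) minus 4x and 0 in 3x(m) minus 4x, against 6.09%, 4.86% and 8.49% of all probe sets. They numbered 1 for the slope and 1 for any difference, against 12.4% and 10.4%. Counted by groups that did not overlap, 1 gene was apart in 4x minus 2x and 0 in the other comparisons. The share of all probe sets that were apart in either direction was 1.37% in 3x(m) minus 2x, 0.743% in 3x(p) minus 3x(m), 0.901% in 3x(p) minus 4x and 1.59% in 3x(m) minus 4x. Differences in 4x minus 2x were positive for 7 of 8 genes, with a median of 0.17, where 49.2% of all probe sets were positive. They were positive for 7 of 8 in 3x(m) minus 2x (median 0.13) and for 5 of 8 in 3x(p) minus 2x (median 0.02), where 48.4% and 49.1% of all probe sets were positive. Some positive differences were near 0, such as EFR at 0.0029 in 4x and PDF1.4 at 0.00031 in 3x(m). The genes share the same 4 diploid arrays and were chosen with earlier results known, so these counts are not a test.

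**Figure D4:**
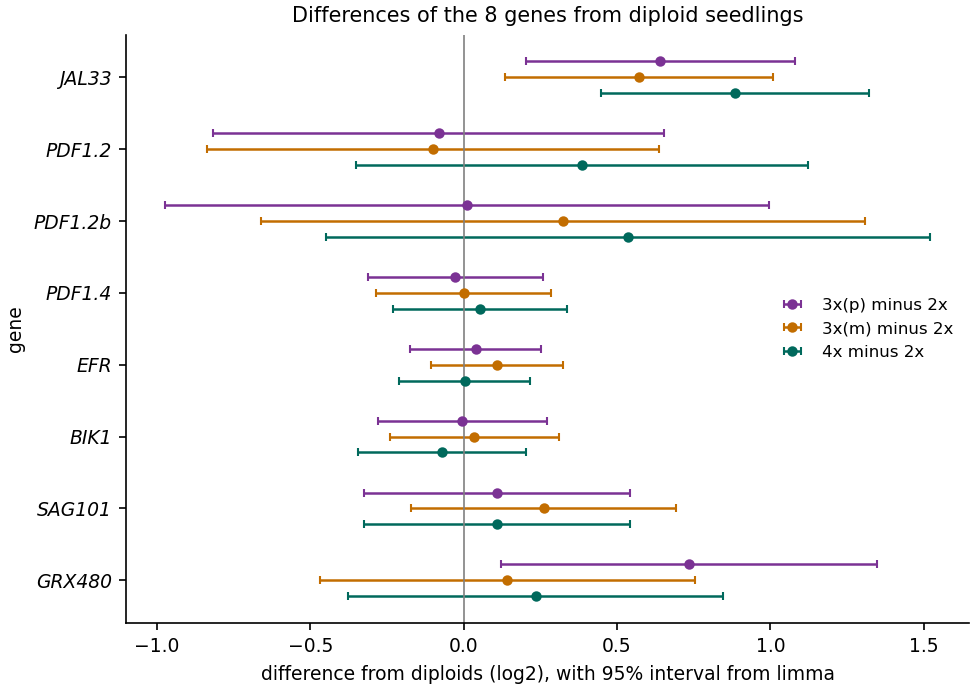
Differences of the 8 genes from diploid seedlings (log2, x axis) in 3x(p), 3x(m) and 4x, with 95% intervals from limma as whiskers (not adjusted for multiple tests). JAL33 lies to the right of 0 in all 3 comparisons, from 0.57 to 0.88, and PDF1.2b has the widest intervals.

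The order of the group means differed from gene to gene. Besides JAL33, tetraploids had the highest mean in all 3 defensins. In PDF1.2 and PDF1.2b this held only with 4x 5 included, without which 4x differed from 2x by −0.10 and 0.05, and 3x(m) by −0.10 and 0.32. Maternal-excess triploids had the highest mean in EFR, BIK1 and SAG101, and paternal-excess triploids in GRX480. Diploids had the lowest mean in JAL33, PDF1.2b, EFR, SAG101 and GRX480. No neighbours in any of these orders differed by a passing test.

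Variation between seedlings of 1 group was large for some of the genes. The residual SD within groups was 0.77 for PDF1.2b, 0.57 for PDF1.2, 0.47 for GRX480, 0.33 for JAL33 and 0.33 for SAG101, against a median of 0.18 over all probe sets. In PDF1.2b it was larger than in 98.9% of all probe sets. Of the 152 values of the 8 genes, 5 lay over 1 log2 unit from the median of their gene, as did 0.936% of the values of all probe sets: JAL33 in 2x 1 (below), PDF1.2 and PDF1.2b in 4x 5, PDF1.2b in 3x(m) 4 and GRX480 in 3x(p) 5. The 4 that lay above came from 3 seedlings of 3 polyploid groups. Seedling 3x(m) 4 was above the median in 7 of the 8 genes and in 48.1% of all probe sets, and 3x(m) 3 in 0 of the 8 and in 45.5% of all.

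Relations between the 8 genes across seedlings were examined on values minus their group mean, in 28 pairs, with 100000 permutations within groups. None passed after adjustment. BIK1 and SAG101 gave r = 0.67 (permutation p = 0.00393, adjusted p = 0.11) and rho = 0.60 (p = 0.0161, adjusted p = 0.251), and r = 0.64 without 4x 3 and 3x(m) 4. PDF1.2 and PDF1.2b gave r = 0.78 (permutation p = 0.00863, adjusted p = 0.121) and rho = 0.64 (p = 0.0245, adjusted p = 0.251). Without 4x 5 and 4x 3, their r was 0.46. JAL33 and PDF1.4 gave r = 0.38 (permutation p = 0.0387, adjusted p = 0.36) and rho = 0.51 (p = 0.0269, adjusted p = 0.251), and r = 0.54 without 2x 1 and 2x 2. These were the 3 pairs with an unadjusted p under 0.05 for r.

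**Figure D5:**
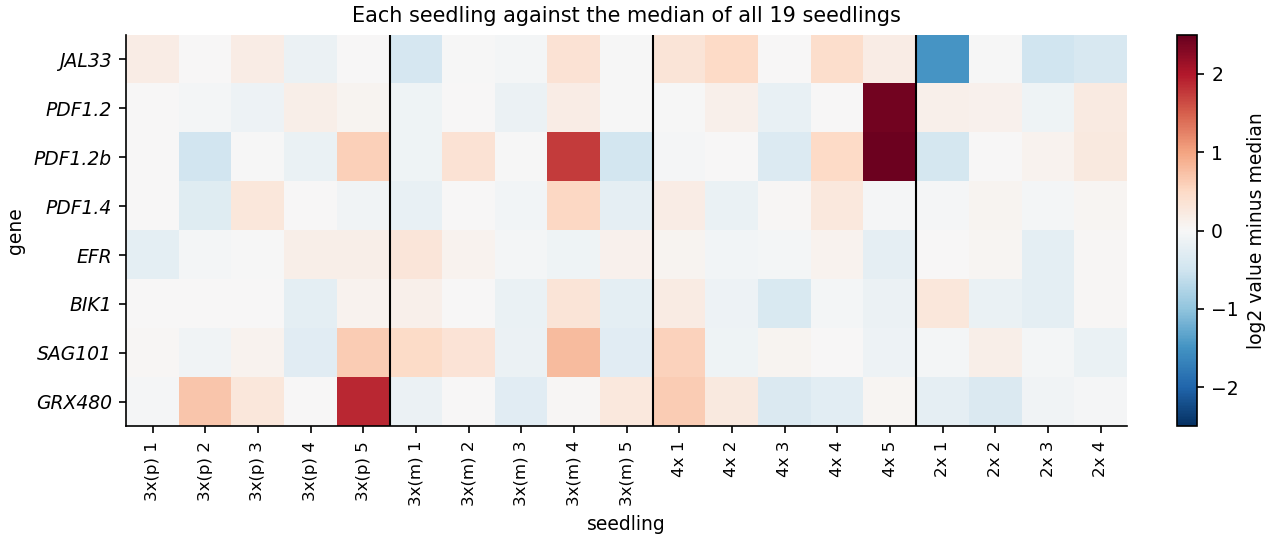
Log2 value minus the median of all 19 seedlings (colour scale) for the 8 genes (rows) in each seedling (columns, in the groups 3x(p), 3x(m), 4x and 2x, divided by lines). The strongest colours are single cells, PDF1.2 and PDF1.2b in 4x 5, GRX480 in 3x(p) 5, PDF1.2b in 3x(m) 4 and JAL33 in 2x 1.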

How the data were processed

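The authors deposited log2 values from RMA, per the submitters' processing notes, which corrects background, normalizes quantiles between arrays and gives 1 value per probe set. Its version is not given in the sources used here. RNA was extracted with Trizol and a column and labelled by a 3' IVT kit, per the labels' protocols. Of 22810 probe sets, 64 controls were set aside. The platform annotation gave 13513 probe sets 1 gene and did not list 8730 of those tested, which are unnamed here. Symbols were updated through a TAIR10.1 gene table. Members and lists were chosen with earlier results of these data known.

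Groups were compared with limma 3.58.1 (R 4.3.3), 1 mean per group over 19 seedlings, no block, eBayes, Benjamini-Hochberg adjustment over 22746 probe sets and a threshold of 0.05. The fit was tested on simulated data. The 16 fixed lists beside the 8 genes held 158 loci, 29 of them measured. All 8 genes were named, as were list genes that passed, up to 4 per list with the smallest F test p, and for each of the 8 the 3 single-gene probe sets with the highest r. AT1G52000, CML37 and genes of 2 families added later were named after their values were seen. The alternatives were 2-group fits, eBayes with trend and robust, no dimmest 30%, a further quantile normalization, array weights, a replicate block and each seedling left out. The r values without 2x 1, and without both 4x 5 and 3x(m) 4, were added after seeing the data. Replicate numbers were not taken to pair the seedlings. Figures were drawn with matplotlib 3.10.9. No sequence is printed, as none was among the sources used here.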

Additional observations from a re-analysis of the deposited data

Results flagged for a closer look

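In 32 groups of values (8 genes in 4 ploidy groups), 4 held a seedling set apart from the others by more than Dixon's 95% critical value. Chance gives about 1 in 20 groups. PDF1.2 was at 6.71 in 4x 5, a gap of 0.878 of the group's range. EFR was at 3.41 in 2x 3, with a gap of 0.837, although the group's whole range is small. BIK1 was at 6.62 in 3x(p) 4, with a gap of 0.755, below 4 seedlings that lay close together. SAG101 was at 4.66 in 4x 1, with a gap of 0.737. The seedlings highest in PDF1.2b, and in GRX480, stood apart by less than the critical value.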

How the results depend on the processing

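The call of JAL33 in 4x minus 2x rests on its margin to the threshold. The number of the 8 genes called there was 1, and it was 0 with only the 2 groups compared in the fit (adjusted p = 0.0944), with eBayes trend and robust (0.0507), with a further quantile normalization (0.053) and with the replicate block (0.0526). It ranged from 0 to 1 over the omissions of single seedlings, with differences from 0.59 to 1.08. Of all probe sets, 451 passed with the 2 groups, 178 with trend and robust, 215 with further normalization and 220 with the block. The main fit gave 218. The slope of JAL33 passed with array weights (0.38, adjusted p = 0.0137), which made 1 gene called in place of 0, and the count ranged from 0 to 1 over the omissions. With array weights the slope passed in 877 of the 22746 probe sets, against 110 in the main fit. The other 6 comparisons kept 0 calls under every alternative run. The direction of small differences that did not pass turned in some settings. With array weights PDF1.2b was at −0.20 in 3x(p) minus 2x and −0.030 in 3x(m) minus 2x, PDF1.4 at −0.10 and BIK1 at −0.041 in 3x(m) minus 2x, and EFR at −0.040 in 4x minus 2x. With a further quantile normalization PDF1.4 was at −0.011 in 3x(m) minus 2x, EFR at −0.026 in 4x minus 2x and BIK1 at 0.015 in 3x(p) minus 2x. With the replicate block PDF1.2b was at −0.14, PDF1.4 at 0.0055 and BIK1 at 0.012, all in 3x(p) minus 2x. The cause was not tested. Of same-numbered seedlings in different groups, 12 of 27 pairs had deviations correlated above 0.1 (median 0.038). Of differently numbered seedlings, 32 of 108 pairs did (median −0.004). The numbers were not taken as pairs, and the replicate block is given as an alternative.

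Ranges over the omissions that turned a sign were −0.10 to 0.55 for PDF1.2 in 4x minus 2x, −0.14 to 0.13 and −0.037 to 0.51 for PDF1.2b in 3x(p) and 3x(m) minus 2x, −0.10 to 0.042 and −0.13 to 0.059 for PDF1.4 in the same, −0.031 to 0.099 and −0.067 to 0.049 for EFR in 3x(p) and 4x minus 2x, −0.079 to 0.099, −0.044 to 0.14 and −0.15 to 0.032 for BIK1 in 3x(p), 3x(m) and 4x minus 2x, −0.028 to 0.20 and −0.015 to 0.17 for SAG101 in 3x(p) and 4x minus 2x, and −0.028 to 0.16 for JAL33 in 3x(p) minus 3x(m). Leaving out the dimmest 30% removed EFR and PDF1.4 from the test. Groups of 4 or 5 arrays limit the precision.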

Other observations

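The seedlings with high defence transcripts differed in how much else was high. Seedling 4x 5, highest in PDF1.2 and PDF1.2b, was the highest of the series by over 1 log2 unit in 1 probe set, that of PDF1.2. The next named genes highest in that seedling were PDF1.2b, with a gap of 0.72 to the next seedling, AT5G19890 (0.48), AT3G22570 (0.45) and AT4G16260 (0.45). Seedling 3x(p) 5 was highest by over 1 in 21 probe sets, 8 of them named. The named ones with the widest gaps were AT1G02470 (7.92 in that seedling, median 5.26 over all 19), AT3G18250 and AT5G44570, and GRX480 was among the 8, as was ICL, the isocitrate lyase of the glyoxylate cycle (7.42, median 4.57). Seedling 3x(m) 4 was highest by over 1 in 80 probe sets, among them AT2G36885 (8.40, median 5.78), AT1G26380, AT1G26420 and CML38, a calmodulin-like protein (4.77, median 3.21).

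PUB24, a U-box ubiquitin ligase known to restrain responses to microbial patterns together with PUB22 and PUB23, was above every diploid in all 3 polyploid groups. It ranged from 4.19 to 5.51 in 3x(p), 4.16 to 4.81 in 3x(m) and 4.15 to 4.94 in 4x, against 3.97 to 4.10 in 2x. Of all probe sets, 2.38% were likewise higher in 3x(p) and 3.31% in 4x without overlap. In 3x(m) 1.37% were apart from 2x in either direction. None of the differences passed, at 0.76 ± 0.21 in 3x(p) (limma, adjusted p = 0.109), 0.39 ± 0.21 in 3x(m) (adjusted p = 0.999) and 0.51 ± 0.21 in 4x (adjusted p = 0.31). Its partners had negative differences in the same 3 comparisons, −0.055, −0.22 and −0.077 for PUB22 and −0.30, −0.27 and −0.76 for PUB23, and none passed. Of the 9 U-box genes measured none passed in any comparison with diploids, with medians of 0.04, −0.02 and 0.09 in the same order, and of the 6 WRKY genes measured none passed either, with medians of −0.0093, −0.0045 and 0.04. At an unadjusted p under 0.05 the U-box genes numbered 2, 1 and 2 and the WRKY genes 3, 2 and 2 (limma), where 12.2%, 4.33% and 12.9% of all probe sets were under it. In 4x the 2 U-box genes were PUB24, higher, and PUB23, lower. Both families were added after the annotation had been seen, and PUB24 was chosen after its values were seen.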
